A study of Mus musculus with 12 samples.

Results

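Described here are 10 genes linked to how olfactory sensory neurons select an odorant receptor gene and bring its protein to the cell surface. The genes are Rtp1, Rtp2, Reep1, Lhx2, Ldb1, Emx2, Ebf1, Lbr, Cbx5 and Atf5. They were taken by name, each through the probe set with that single annotated symbol, and all 10 of 10 were measured among the 19938 genes tested. Each had exactly 1 such probe set, so no choice between probe sets arose. Dissociated olfactory mucosa of 18 mice of both sexes, aged 7 to 12 weeks, supplied the cells. In these S100a5-tauGFP mice GFP marks cells that use S100a5, a calcium-binding protein gene driven by sensory activity. All mice, controls included, carried the reporter and spent 40 hours alone in a clean air chamber. After 26 hours the odor mice received 10 second pulses of a 5% citrus accord every 20 minutes, while the vehicle mice received filtered air. Cells were then sorted, 3 mice to a pool, which gave 4 groups of 3 arrays: odor GFP-positive, vehicle GFP-positive, odor GFP-negative and vehicle GFP-negative. With 6 pools and 12 arrays, each pool supplied both fractions, so the fractions were compared within pools, and odor was compared with vehicle between pools. Nothing in the labels says which sexes were in which pool, nor what the reporter allele does to S100a5 itself.

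A mature olfactory sensory neuron expresses a single odorant receptor allele out of a very large family. During differentiation the receptor genes are packed into compact heterochromatin, and the nuclear envelope receptor Lbr is lost, which lets the silenced clusters gather in the centre of the nucleus. Lhx2 and Ebf proteins then bind enhancers of the chosen gene, with Ldb1 bridging Lhx2-bound enhancers across chromosomes, and the receptor protein made in the endoplasmic reticulum triggers a feedback through Atf5 that stabilises the choice. Rtp1, Rtp2 and Reep1 help the receptor protein leave the endoplasmic reticulum.

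GFP-positive cells carried more of 7 of the 10 transcripts than GFP-negative cells and less of 2, with the same counts in either treatment. Of all genes 32.9% were called higher and 18.5% lower in odor mice, and 29.7% and 18.1% in vehicle mice, so the 2 lower genes are near the background share. Emx2, Reep1 and Rtp2 had the largest excess, between 1.54-fold and 1.76-fold, and Lbr was 3.76-fold lower in odor mice and 3.48-fold lower in vehicle mice. Ldb1 alone passed in neither. None of the 10 passed the test of odor against vehicle in either fraction. The test was limma's moderated test with adjustment over all genes at 0.05.

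The deposited log2 signals lay between 2.42 and 14.1, with array medians of 7.04 to 7.20. Arrays of the same group correlated across genes with r of 0.9865 to 0.9962 and arrays of different fractions with r of 0.883 to 0.938. A log2 signal has no zero and gives no read depth, so the number of arrays limits the precision, and levels of different probe sets were not compared with each other. S100a5 was 6.35 ± 0.05 in odor GFP-positive cells and 6.05 ± 0.18 in odor GFP-negative cells (log2, SD, n = 3), 0.31 higher (SE 0.08, adjusted p = 0.0123 by limma). In vehicle mice it was 6.35 ± 0.11 in GFP-positive cells and 6.16 ± 0.08 in GFP-negative cells, and the difference of 0.19 (SE 0.08) did not pass. On every array S100a5 read below the array median, so it is a weak check of the sort. Of 9 markers of mature sensory neurons 8 were higher in GFP-positive cells in either treatment, with a median difference of 0.50 (odor) and 0.46 (vehicle). Omp, the olfactory marker protein gene, was 0.33 and 0.31 higher (SE 0.08 each). Stoml3 was the marker that did not pass. Mean log2 signal of the 9 mature neuron markers was 12.79 to 12.86 on GFP-positive and 12.21 to 12.50 on GFP-negative arrays. Both fractions thus carried these markers, and GFP-negative cells carried more of many markers of other cells. All 7 neutrophil, 6 macrophage and myeloid, 5 B and plasma cell, 4 sustentacular and 3 microvillous cell markers were lower in GFP-positive cells in both treatments. Other lists were less uniform. Lower were 4 (odor) and 5 (vehicle) of 5 progenitor and dividing cell markers. In each treatment 2 of 3 ensheathing glia, 1 of 3 horizontal basal and 1 of 5 fibroblast markers were lower. Of 6 immature sensory neuron markers 3 were higher and 2 lower in each. In bulk samples such as these, fewer cells of a type and less RNA per cell cannot be told apart.

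**Figure D1:**
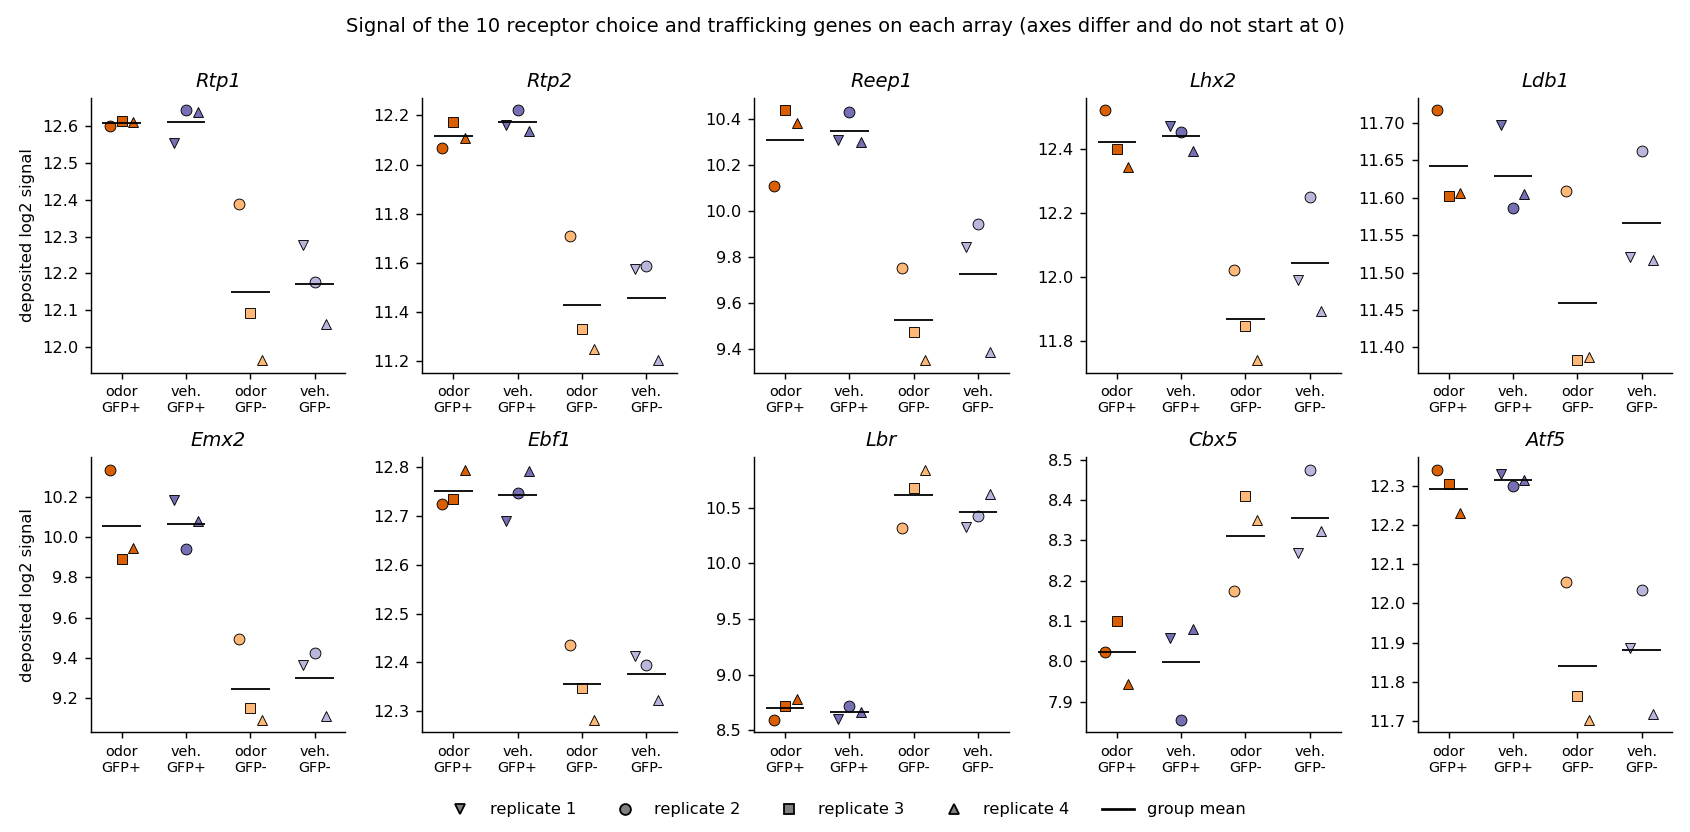
Deposited log2 signal of each of the 10 genes on all 12 arrays, one panel per gene with its own axis, and with points for arrays (shape gives the replicate number) and a line for each group mean. In 9 panels the 3 GFP-positive arrays of a treatment lie apart from its 3 GFP-negative arrays, above them for 7 genes and below them for Lbr and Cbx5. Odor and vehicle points overlap in every panel.

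The receptor-transporting proteins come first. Rtp1 encodes a chaperone that carries odorant receptors to the plasma membrane. On the GFP-positive arrays it read 12.60, 12.61 and 12.61 in odor mice and 12.56, 12.64 and 12.64 in vehicle mice. On the GFP-negative arrays it read 12.39, 12.09 and 11.96 in odor mice and 12.28, 12.18 and 12.06 in vehicle mice. Every GFP-positive value lay above every GFP-negative value, and the GFP-negative arrays were the more scattered. The paired difference was 0.46 (SE 0.10, 1.38-fold, adjusted p = 0.0045) in odor mice and 0.44 (SE 0.10, 1.36-fold, adjusted p = 0.00577) in vehicle mice. Within pools it ran from 0.21 in odor replicate 2 to 0.65 in odor replicate 4 and was above 0 in 6 of 6.

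Rtp2, the close relative of Rtp1 with the same role, showed a larger gap. Its values were 12.07, 12.17 and 12.11 in odor GFP-positive cells, against 11.71, 11.33 and 11.25 in odor GFP-negative cells. In vehicle mice they were 12.16, 12.22 and 12.14 in GFP-positive cells, against 11.58, 11.59 and 11.21 in GFP-negative cells. The fractions did not overlap in either treatment. Rtp2 was 1.61-fold higher in GFP-positive cells of odor mice (log2 difference 0.69, SE 0.12, adjusted p = 0.00107) and 1.64-fold higher in those of vehicle mice (0.72, SE 0.12, adjusted p = 0.000883). Because Rtp1 and Rtp2 are paralogues, probes that bind both transcripts could blur their separate values, and this was not tested.

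Reep1 encodes an endoplasmic reticulum shaping protein that promotes surface expression of odorant receptors in cultured cells. It read 10.11, 10.44 and 10.38 in odor GFP-positive cells, against 9.75, 9.47 and 9.35 in odor GFP-negative cells. The vehicle values were 10.31, 10.43 and 10.30 in GFP-positive cells, against 9.84, 9.94 and 9.39 in GFP-negative cells. Again no GFP-negative array reached a GFP-positive one. The gap was 0.78 (SE 0.14, 1.72-fold, adjusted p = 0.0015) in odor mice and 0.62 (SE 0.14, 1.54-fold, adjusted p = 0.00531) in vehicle mice. Its range over pools was the widest of the 10 genes, with every pool above 0, from 0.36 in odor replicate 2 to 1.03 in odor replicate 4.

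Promoter sequences show what lies just upstream of members that moved in opposite directions between the fractions. RefSeq windows (GRCm38.p6), 250 bases before to 50 after a start, were found for 9 of the 10 genes, in 15 windows, and the gene without one is Rtp1. Both strands were searched for the core of the Ebf site, CCCNNGGG, and for the homeodomain letters TAATTA, which read the same on both strands. The Ebf core was present in windows of 4 genes, Rtp2, Reep1, Lhx2 and Ldb1, or 4 of 15 windows, against 13.7% of all 32851 promoter windows. By gene it was 4 of 9, against 15.4% of 27025 genes. Of the genes with the core, Rtp2, Reep1 and Lhx2 were higher in GFP-positive cells, and Ldb1 was not called. Emx2, Ebf1 and Atf5, which were also higher, lacked it, as did Lbr and Cbx5, which were lower. Whether the core goes with the direction between fractions was not tested. TAATTA was in 1 window, that of Emx2, 37 bases after its start, against 5.29% of all windows. The only matches that overlapped were 2 of the Ebf core in a window of Lhx2, and these lay after its start, not upstream. Printed 5′ to 3′ are the 250 upstream bases of Rtp2 (chr16:23930795-23931044, minus strand) and Reep1 (chr6:71707431-71707680, plus strand), with the Ebf core in capitals, and of Lbr (chr1:181842402-181842651, minus strand), the gene lowest in GFP-positive cells relative to GFP-negative cells, which held no match. These letters do not show whether a factor binds there.
Rtp2: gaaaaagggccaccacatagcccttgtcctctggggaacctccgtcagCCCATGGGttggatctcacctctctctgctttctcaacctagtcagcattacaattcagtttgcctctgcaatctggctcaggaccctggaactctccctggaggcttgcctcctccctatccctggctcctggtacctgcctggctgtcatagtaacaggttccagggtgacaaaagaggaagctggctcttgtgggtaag
Reep1: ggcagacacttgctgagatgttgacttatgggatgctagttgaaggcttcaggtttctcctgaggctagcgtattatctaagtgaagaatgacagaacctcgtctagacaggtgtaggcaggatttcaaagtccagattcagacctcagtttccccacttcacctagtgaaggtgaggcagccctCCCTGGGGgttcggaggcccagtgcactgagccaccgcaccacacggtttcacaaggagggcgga
Lbr: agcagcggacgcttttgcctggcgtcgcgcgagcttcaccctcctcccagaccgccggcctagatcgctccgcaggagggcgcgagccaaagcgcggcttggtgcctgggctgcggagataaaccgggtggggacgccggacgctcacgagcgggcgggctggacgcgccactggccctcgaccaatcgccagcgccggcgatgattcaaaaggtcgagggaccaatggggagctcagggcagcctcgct

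**Figure D2:**
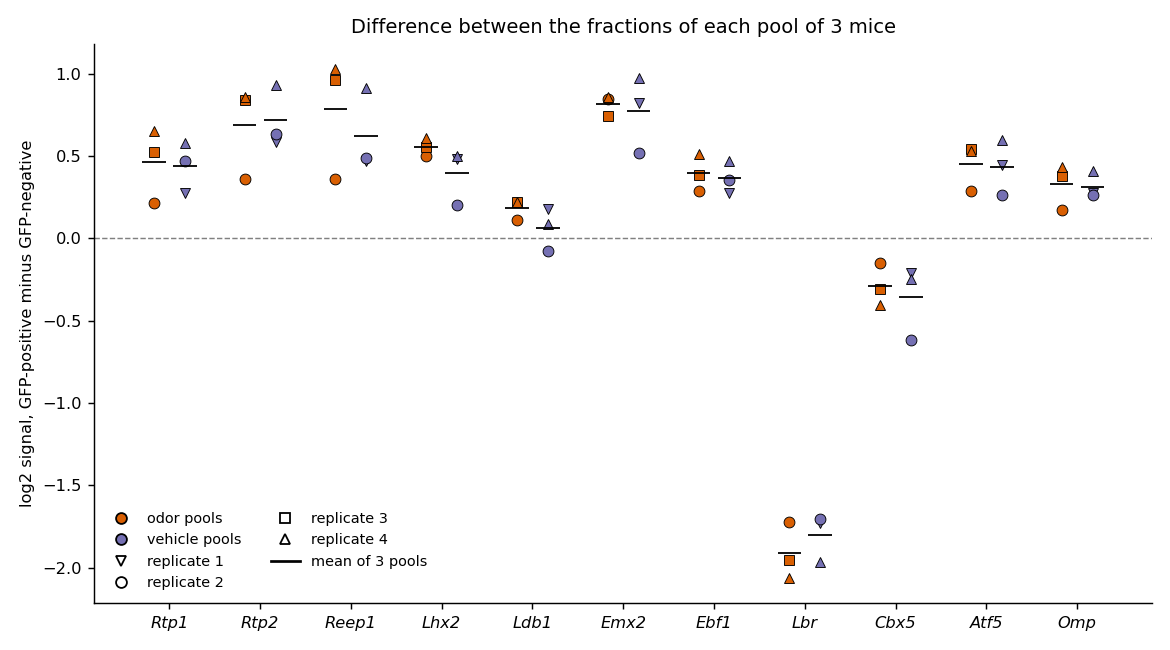
GFP-positive minus GFP-negative log2 signal within each pool, for the 10 genes and Omp, with 3 odor pools (left) and 3 vehicle pools (right) per gene and a line for each mean. Lbr lies between -2.06 and -1.71 in all 6 pools, while Ldb1 is the gene whose pools fall on both sides of 0.

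Among the transcriptional regulators, Lhx2, a LIM homeodomain factor needed for receptor expression and neuron maturation, was higher in GFP-positive cells. It read 12.52, 12.40 and 12.35 in odor GFP-positive cells, against 12.02, 11.85 and 11.74 in odor GFP-negative cells. The vehicle arrays gave 12.47, 12.45 and 12.39 in GFP-positive cells, against 11.99, 12.25 and 11.89 in GFP-negative cells. Lhx2 groups did not overlap, though vehicle GFP-negative replicate 2 came close to the GFP-positive arrays. The differences were 0.55 (SE 0.08, 1.47-fold, adjusted p = 0.000593) in odor mice and 0.40 (SE 0.08, 1.32-fold, adjusted p = 0.00371) in vehicle mice.

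Ldb1, the adaptor that joins Lhx2-bound elements, behaved otherwise. Its values were 11.72, 11.60 and 11.61 in odor GFP-positive cells, against 11.61, 11.38 and 11.39 in odor GFP-negative cells. In vehicle mice they were 11.70, 11.59 and 11.60 in GFP-positive cells, against 11.52, 11.66 and 11.52 in GFP-negative cells. The fractions overlapped in both treatments. The difference was 0.18 (SE 0.08, 95% interval 0.00 to 0.36, adjusted p = 0.0803) in odor mice and 0.06 (SE 0.08, interval -0.12 to 0.24, adjusted p = 0.571) in vehicle mice. In odor mice it passed with a second quantile normalization (0.30, adjusted p = 0.00952) and with arrays centred on their medians (0.23, adjusted p = 0.039). In vehicle mice the sign turned with cyclic loess (-0.05, adjusted p = 0.598).

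Emx2 is a homeobox gene whose loss reduces the expression of many odorant receptors. It was 10.34, 9.89 and 9.95 in odor GFP-positive cells, against 9.50, 9.15 and 9.09 in odor GFP-negative cells. Vehicle arrays gave 10.18, 9.94 and 10.08 in GFP-positive cells, against 9.36, 9.42 and 9.11 in GFP-negative cells. The Emx2 fractions stood well apart, and its 6 pools gave differences of 0.52 to 0.97. Emx2 was 1.76-fold higher in GFP-positive cells of odor mice (0.81, SE 0.09, adjusted p = 0.000137) and 1.71-fold higher in those of vehicle mice (0.77, SE 0.09, adjusted p = 0.000202).

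Ebf1, an early B cell factor family member that also binds olfactory promoters, had the smallest spread over the GFP-negative arrays. It read 12.72, 12.73 and 12.79 in odor GFP-positive cells, against 12.44, 12.35 and 12.28 in odor GFP-negative cells. The vehicle values were 12.69, 12.75 and 12.79 in GFP-positive cells, against 12.41, 12.40 and 12.32 in GFP-negative cells. No array crossed between fractions. Ebf1 was higher by 0.40 (SE 0.08, 1.32-fold, adjusted p = 0.00282) in odor mice and by 0.37 (SE 0.08, 1.29-fold, adjusted p = 0.00431) in vehicle mice. Ebf1 is also a B cell gene. The 5 measured B and plasma cell markers had differences of -4.29 to -0.49 in odor mice and -4.20 to -0.26 in vehicle mice, and their part in the Ebf1 values was not tested.

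Lbr encodes the lamin B receptor of the inner nuclear membrane, which tethers heterochromatin to the nuclear edge. It read 8.60, 8.72 and 8.78 in odor GFP-positive cells, against 10.32, 10.68 and 10.84 in odor GFP-negative cells. In vehicle mice it read 8.60, 8.72 and 8.66 in GFP-positive cells, against 10.33, 10.42 and 10.63 in GFP-negative cells. Its lowest GFP-negative value was far above its highest GFP-positive value. The difference was -1.91 (SE 0.09, adjusted p = 4.74e-07) in odor mice and -1.80 (SE 0.09, adjusted p = 7.57e-07) in vehicle mice. Neutrophils and dividing cells also use Lbr. Within pools, the mean of the neutrophil markers differed by -4.18 to -3.56, that of macrophage and myeloid markers by -3.51 to -2.78, and that of progenitor and dividing cell markers by -2.11 to -1.70. Their part in the Lbr difference was not tested.

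Cbx5 encodes the heterochromatin protein HP1 alpha, which binds methylated histone H3 and also Lbr. Its values were 8.02, 8.10 and 7.94 in odor GFP-positive cells, against 8.17, 8.41 and 8.35 in odor GFP-negative cells. In vehicle mice they were 8.06, 7.86 and 8.08 in GFP-positive cells, against 8.27, 8.47 and 8.32 in GFP-negative cells. The fractions did not overlap, but the gap was small. Cbx5 was lower by 1.22-fold in odor mice (-0.29, SE 0.10, adjusted p = 0.0359) and by 1.28-fold in vehicle mice (-0.36, SE 0.10, adjusted p = 0.0146). The call in odor mice ended without odor replicate 3 (adjusted p = 0.115) or 4 (adjusted p = 0.18), with a second quantile normalization (adjusted p = 0.0569) and with arrays centred on their medians (adjusted p = 0.0762). The call in vehicle mice ended without vehicle replicate 2 (-0.23, adjusted p = 0.107) and with arrays centred on their medians (adjusted p = 0.0708).

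Atf5 encodes a transcription factor translated during the unfolded protein response that a newly expressed receptor triggers. It was 12.34, 12.31 and 12.23 in odor GFP-positive cells, against 12.06, 11.76 and 11.70 in odor GFP-negative cells. Vehicle mice had 12.33, 12.30 and 12.31 in GFP-positive cells, against 11.89, 12.03 and 11.72 in GFP-negative cells. All GFP-positive arrays exceeded all GFP-negative arrays. The difference was 0.45 (SE 0.09, 1.37-fold, adjusted p = 0.00288) in odor mice and 0.43 (SE 0.09, 1.35-fold, adjusted p = 0.0036) in vehicle mice. These are transcript levels, and Atf5 is controlled largely at translation.

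Counted together, 7 of 10 genes were called higher in GFP-positive cells of odor mice, where 32.9% of all genes were, and 2 of 10 lower, where 18.5% were. In vehicle mice the counts were again 7 and 2, beside 29.7% and 18.1% of all genes. The 3 GFP-positive arrays did not overlap the 3 GFP-negative ones for 9 of 10 genes in either treatment, beside 60.7% of all genes in odor mice and 57.4% in vehicle mice. The share called lower is close to the background, and that called higher lies above it. The 10 genes were chosen with earlier results of these data known, so this excess is not independent evidence. The median difference of the 10 was 0.46 (odor) and 0.42 (vehicle), beside 0.13 and 0.06 over all genes, and 0.50 and 0.46 for the mature neuron markers. The test of whether the gap between fractions differed between odor and vehicle mice called 0 of 10 genes and 0% of all genes in limma. At an unadjusted p under 0.05 there were 0 of 10 genes and 932 of 19938. Reep1 and Lhx2 had the largest such differences, 0.16 each (SE 0.20 and 0.12).

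**Figure D3:**
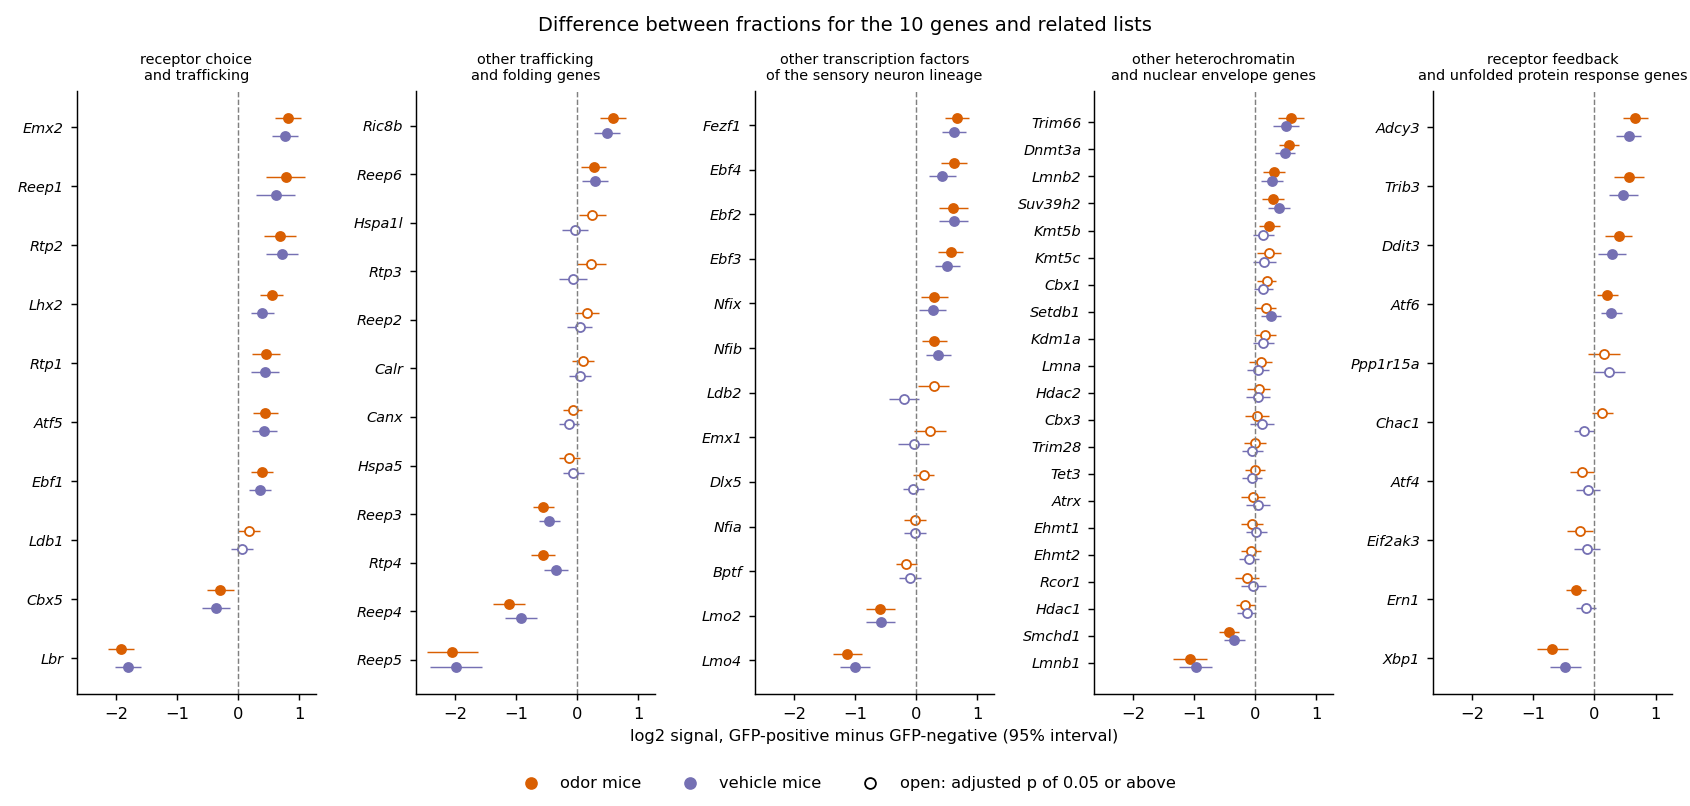
GFP-positive minus GFP-negative log2 difference with its 95% interval for the 10 genes (first panel) and 4 related lists, in odor mice (orange) and vehicle mice (violet), with filled points for adjusted p under 0.05. Lbr and Reep5 have the lowest values of their panels, and the Ebf genes and Fezf1 lie with Lhx2 and Emx2 above 0.

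Other genes of the same pathways are counted against the shares of all genes called higher and lower, 32.9% and 18.5% in odor mice and 29.7% and 18.1% in vehicle mice. Of 12 other trafficking and folding genes 2 were higher and 4 lower in GFP-positive cells in each treatment, with median differences of 0.02 (odor) and -0.06 (vehicle). Ric8b, a chaperone of the olfactory G protein, was higher by 0.59 in odor mice and 0.50 in vehicle mice (SE 0.09). The relatives of Reep1 were mixed. Reep5 differed by -2.04 and -1.99 (SE 0.19), Reep4 by -1.11 and -0.92 (SE 0.12) and Reep3 by -0.55 and -0.45 (SE 0.08). Reep6 was higher by 0.28 and 0.29 (SE 0.09), and Reep2, at 0.16 and 0.04 (SE 0.09), did not pass. Rtp4, an interferon-induced relative of Rtp1, differed by -0.56 in odor mice and -0.34 in vehicle mice (SE 0.09).

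Of 13 measured transcription factors of the sensory neuron lineage 6 were higher and 2 lower in each treatment. Ebf2 was higher by 0.61 in both treatments (SE 0.10), Ebf4 by 0.62 and 0.43 (SE 0.09) and Fezf1, a zinc finger factor of olfactory neurons, by 0.67 and 0.62 (SE 0.09). The LIM-only gene Lmo4, whose protein can bind Ldb1, was called lower in both treatments, with a difference of -1.13 in odor mice (SE 0.11), and Lmo2 differed by -0.59 and -0.58 (SE 0.11).

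Among 21 heterochromatin and nuclear envelope genes 5 were higher and 2 lower in each treatment, and 14 did not pass, so neither share exceeded that of all genes. Lmnb1, which encodes lamin B1, differed by -1.07 in odor mice and -0.98 in vehicle mice (SE 0.12). Trim66, a chromatin reader expressed in sensory neurons, was higher by 0.58 and 0.50 (SE 0.09), and the DNA methyltransferase gene Dnmt3a by 0.55 and 0.48 (SE 0.07). Smchd1, a chromatin silencing gene, differed by -0.43 in odor mice and -0.34 in vehicle mice (SE 0.07). Suv39h2, a histone H3 methyltransferase gene, was higher by 0.29 and 0.38 (SE 0.08). In the receptor feedback and unfolded protein response list of 10 genes, 4 were higher in each treatment, and 2 were lower in odor mice and 1 in vehicle mice. Adcy3, the olfactory adenylyl cyclase that ends the feedback, was higher by 0.67 and 0.56 (SE 0.09), Trib3 by 0.57 and 0.47 (SE 0.11) and Ddit3 by 0.40 and 0.29 (SE 0.10). The secretory stress factor Xbp1 differed by -0.69 in odor mice and -0.48 in vehicle mice (SE 0.11).

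Each of the 10 genes had a larger SD over the 6 GFP-negative arrays than over the 6 GFP-positive arrays. Over the 6 GFP-positive arrays the SD ran from 0.03 for Rtp1 to 0.17 for Emx2, and over the 6 GFP-negative arrays from 0.06 for Ebf1 to 0.25 for Reep1. Within the GFP-negative fraction the arrays moved together: odor replicate 4 was lowest for 6 of the 10 genes, odor replicate 2 was highest for 5 and vehicle replicate 2 for 4. For Lbr the order ran the other way, with odor replicate 2 lowest at 10.32 and odor replicate 4 highest at 10.84. The mean log2 signal of the 9 mature neuron markers was 12.50, 12.28 and 12.21 in odor GFP-negative replicates 2, 3 and 4, and 12.45, 12.46 and 12.22 in vehicle GFP-negative replicates 1, 2 and 4. That of the 6 macrophage and myeloid markers was 10.93, 11.26 and 11.44 in the same odor arrays and 10.96, 10.95 and 11.15 in the vehicle arrays. The mature neuron markers were thus lowest, and the macrophage and myeloid markers highest, in the array where most of the 10 genes were lowest. The progenitor and dividing cell mean (8.25) and the B and plasma cell mean (9.83) were also highest there. The neutrophil mean was highest in odor replicate 3 (12.11, against 12.01 in replicate 4), as was the sustentacular mean (11.05 against 10.73). Their part in the spread was not tested.

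**Figure D4:**
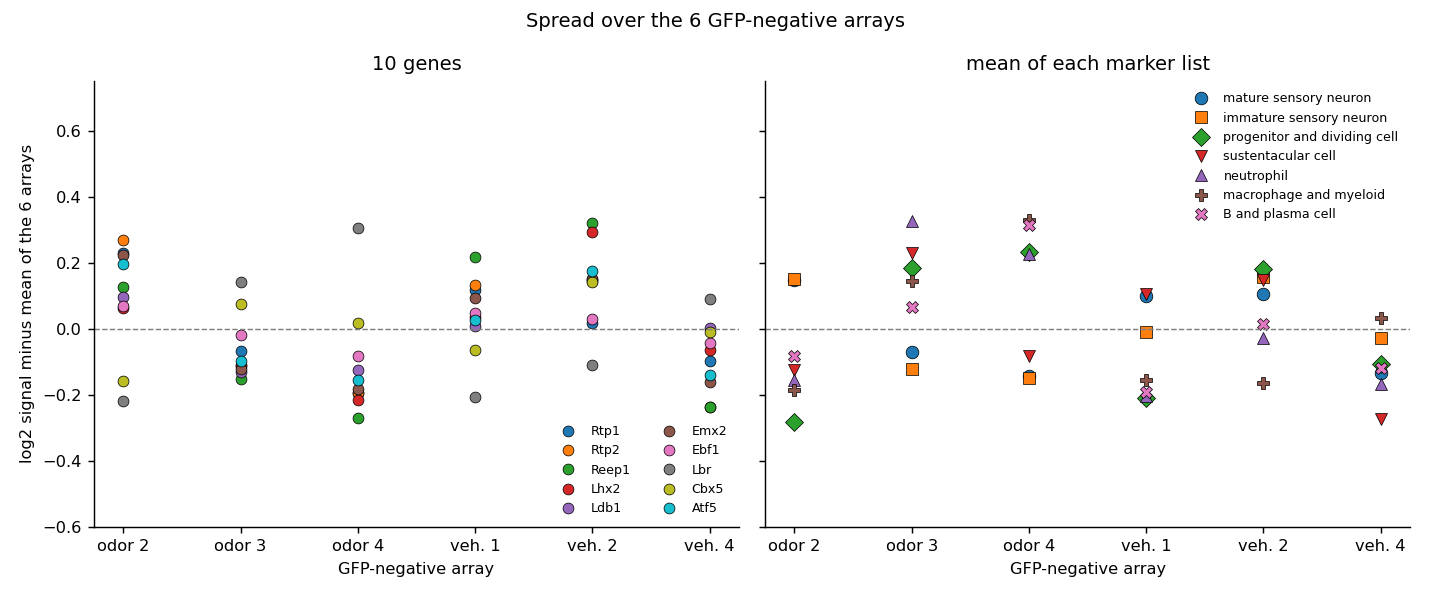
Log2 signal minus the mean of the 6 GFP-negative arrays, for the 10 genes (left) and for the mean of 7 marker lists (right), with the 3 odor arrays left of the 3 vehicle arrays. Most genes lie above 0 in odor replicate 2 and vehicle replicates 1 and 2, as the mature neuron markers do, and Lbr lies below 0 there.

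Likeness was measured as the root mean square distance between log2 values over the 12 arrays, after centring each gene on its own mean. It is set mainly by the gap between the fractions, so a near profile need not mean a shared role. The median distance to all genes ran from 0.18 for Ldb1 to 0.99 for Lbr. The next nearest gene could be almost as close, as with Cadm1 (0.0383) and Clgn (0.0388) for Rtp1. Among the 10 genes, the closest pair was Lhx2 and Atf5 (0.0654), followed by Rtp1 and Atf5 (0.0675). Next came Rtp1 and Ebf1 (0.075), Ebf1 and Atf5 (0.0895), and Rtp2 and Reep1 (0.0924). Lbr and Emx2 were the farthest apart, at 1.36. Of all named genes, the one nearest to Rtp1 was the adhesion gene Cadm1, at a distance of 0.04. The nuclear membrane gene Sun1 was nearest to Rtp2 (0.04), the ciliary gene Tmem67 to Reep1 (0.07) and the chromatin remodelling gene Smarcc1 to Ebf1 (0.03). Eaf1 was nearest to Lhx2 (0.04), Rab3b to Atf5 (0.04) and BC025920 to Emx2 (0.06). Nearest to Lbr was the membrane-cytoskeleton linker gene Msn (0.06), to Cbx5 the DNA polymerase gene Pold1 (0.06) and to Ldb1 the metallothionein gene Mt1 (0.03).

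The comparison of odor with vehicle mice asks whether transcripts of these genes differ after repeated stimulation. In GFP-positive cells 0 of 10 genes were called by limma, beside 0.00502% of all genes, and at an unadjusted p under 0.05 there were also 0 of 10 and 259 of all genes. The groups overlapped for 10 of 10 genes, and for all genes 7.93% did not overlap. Differences ran from -0.06 for Rtp2 to 0.04 for Lbr, with a median of -0.01 (all genes 0.00). Rtp1 averaged 12.61 ± 0.01 in odor and 12.61 ± 0.05 in vehicle GFP-positive cells (SD, n = 3 each). Ebf1 had the narrowest 95% interval, from 0.909-fold to 1.11-fold, and Reep1 the widest, from 0.783-fold to 1.21-fold. The 4 groups share an estimate of spread for each gene, so arrays of both fractions set the interval widths in either fraction. On the GFP-positive arrays alone the SD was smallest for Rtp1 (0.03) and largest for Emx2 (0.17). The intervals are not adjusted for the number of genes. They show which changes fit the data, not the smallest change the test could call with 3 pools a group.

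In GFP-negative cells the result was 0 of 10 called by limma, beside 0% of all genes, and at an unadjusted p under 0.05 it was 0 of 10 and 1301 of all genes. Groups overlapped for all 10, and 7.44% of all genes did not overlap. Of the 10 differences 9 were below 0, with a median of -0.04 (all genes -0.01), but with arrays centred on their medians 6 of 10 were. Reep1 averaged 9.53 ± 0.20 in odor and 9.73 ± 0.30 in vehicle GFP-negative cells, a difference of -0.20 (SE 0.15, interval -0.51 to 0.12). Lhx2 averaged 11.87 ± 0.14 in odor and 12.04 ± 0.18 in vehicle GFP-negative cells, -0.18 (SE 0.10, interval -0.39 to 0.04). Lbr averaged 10.61 ± 0.27 in odor and 10.46 ± 0.15 in vehicle GFP-negative cells, a difference of 0.15 (SE 0.12, interval -0.11 to 0.42). None of these 3 values was stable to the choice of pools. Leaving out 1 pool at a time gave -0.37 to -0.09 for Reep1, -0.25 to -0.07 for Lhx2 and 0.04 to 0.30 for Lbr, with no call. In the same comparison all 7 neutrophil and all 6 macrophage and myeloid markers differed by more than 0, with medians of 0.14 and 0.22, and none was called. Their part in the values of the 10 genes was not tested. In the 4 related lists limma called 0 genes for odor in either fraction. At an unadjusted p under 0.05 there were 0 in GFP-positive cells. In GFP-negative cells there were 3 of 12 trafficking genes and 1 gene in each of the other lists, beside 1301 of 19938 genes. The 3 trafficking genes did not share a direction. Hspa1l differed by -0.29 (SE 0.08) and Rtp4 by 0.26 (SE 0.09), with group means of 6.08 to 6.51, below the array medians. The odor and fraction comparisons share arrays, so they are not separate evidence.

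**Figure D5:**
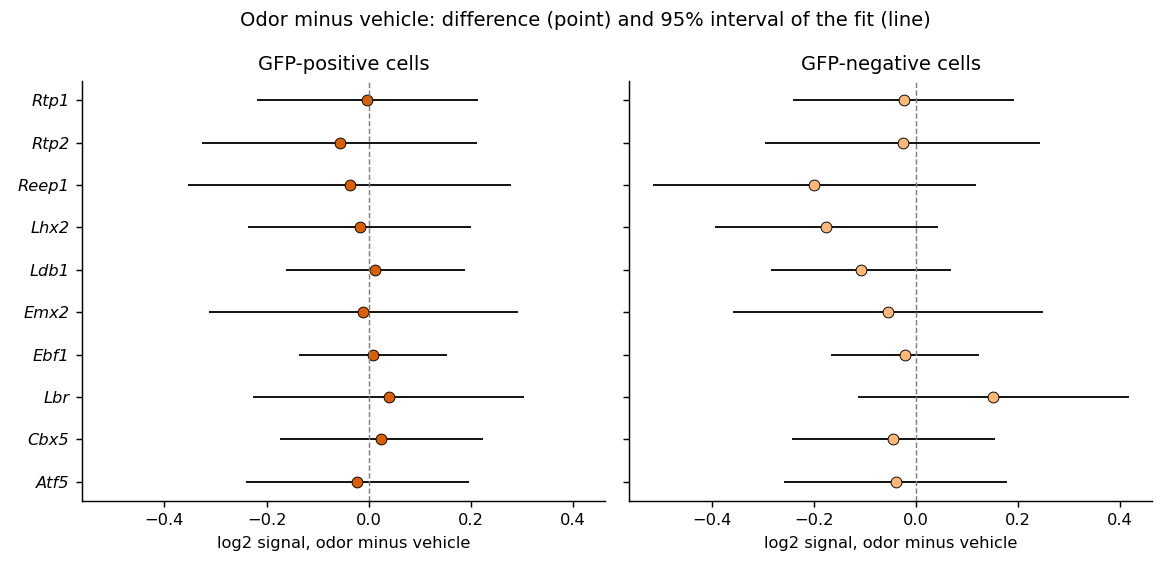
Odor minus vehicle log2 difference of the 10 genes with the 95% interval of the fit, in GFP-positive cells (left) and GFP-negative cells (right). Every interval includes 0. The points span a narrower range in GFP-positive cells, from -0.06 to 0.04, than in GFP-negative cells, from -0.20 to 0.15.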

How the data were processed

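Per the labels, RNA from 12 sorted samples was hybridised to Mouse Gene 1.0 ST arrays. The log2 signal per probe set is as deposited by the authors, and the submitters' processing notes name Expression Console from Affymetrix. Its version and the methods of summarization, background correction and scaling were not given in the sources used here. No column was set aside, since the table has 0 columns of other samples. Probe sets with 1 symbol were kept (21789 of 35556), and the probe set with the highest mean stood for a gene, with no filter on low values. Odor was compared with vehicle in a model of 4 group means, which share an estimate of spread for each gene. GFP-positive minus GFP-negative differences, and their interaction with odor, had the pool of 3 mice as a block, since 18 mice in pools of 3 give 6 pools and 12 arrays. Deviations from group means correlated across genes within each pool with r of 0.07 to 0.25. The fits used limma 3.58.1 in R 4.3.3, were tested on simulated data, and their p-values are two-sided with Benjamini-Hochberg adjustment over all 19938 genes. Figures used matplotlib 3.10.9. Alternatives were 3 other scalings, a low-value filter, averaged probe sets, another variance model, array weights, other blocks and leaving out each pool. The rule for naming genes takes the 10 genes, S100a5 and Omp, up to 4 called genes of each related list with the largest difference, or the 2 with the smallest p, and for each of the 10 the nearest profiles; the text gives part of these. Outside it stand the marker Stoml3, and Reep2 and Reep6, chosen after their values were seen. The 10 genes, the lists and the rule were chosen with earlier results of these data known.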

Additional observations from a re-analysis of the deposited data

How the results depend on the processing

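The count of the 10 genes called stayed within 1.5 times its main value under every alternative run. It was 8 or 9 between fractions in odor mice and in vehicle mice, and 0 for odor against vehicle in either fraction and for the interaction. With no replicate block it was 9 in both treatments, and with the title number, the code number or the pool as a replicate block the odor counts were 0, so the block changed no call. Rtp1, Rtp2, Reep1, Lhx2, Emx2, Ebf1, Lbr and Atf5 kept their calls and directions between fractions under all 14 alternatives. The nearest to losing it was Reep1 in vehicle mice, with adjusted p up to 0.0478. Cbx5 lost 4 calls in odor mice and 2 in vehicle mice, and Ldb1 gained 2 in odor mice, as given above. Of refits of single genes for odor against vehicle, 27 of 170 in GFP-positive and 21 of 170 in GFP-negative cells changed sign, without a call in either. In GFP-negative cells 9 of the 170 moved by more than 1 SE of the difference, among them Lbr at 0.30 without odor replicate 2 (adjusted p = 0.299) and 0.28 with array weights (adjusted p = 0.606). Scaling moved the median difference of all genes between fractions by -0.12 in odor mice with cyclic loess and by 0.10 in vehicle mice with median centring, and the median of the 10 genes stayed between 0.33 and 0.59. Reep1, without odor replicate 2, had an interaction of 0.37 (adjusted p = 0.655), against 0.16 with all pools.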
